A study of Mus musculus with 3 samples.

Results

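Hyaluronan is a long sugar polymer of the extracellular matrix. It is built at the plasma membrane by hyaluronan synthases from UDP-glucuronic acid and UDP-N-acetylglucosamine, and cut by hyaluronidases. It is bound at the cell surface by receptors such as CD44 and LYVE1, and held in the matrix by proteins like versican and TSG-6. It is abundant in skin and is known to accumulate early in wounds, where it forms part of the provisional matrix. The 10 genes described here, of 32285 genes in the deposited tables, cover these roles. They are the synthase genes *Has1*, *Has2* and *Has3*, the hyaluronidase genes *Hyal1* and *Hyal2*, and the receptor genes *Cd44* and *Lyve1*. With them are the genes of the binding matrix proteins *Vcan* (versican) and *Tnfaip6* (TSG-6). The list also holds the scavenger receptor gene *Stab1*, and binding of hyaluronan by its product was not measured here. All 10 were listed by name and matched by Ensembl identifier.

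Full-thickness back skin of adult male C57BL/6J mice, an inbred wild-type strain, was wounded with a biopsy punch, and unsorted cells of the healing tissue were profiled by droplet single-cell RNA sequencing on Days 3, 7 and 14. The series' own design note calls the wounds incisional. Each day was 1 library of cells pooled from 4 wound samples, with no unwounded skin among the samples analysed here, so the days could not be compared over replicates and no test was made. The libraries held 5158, 22924 and 16611 cell barcodes and totals of 38133650, 120940799 and 112713257 UMIs (unique molecular identifiers, which count captured mRNA molecules once each). After filters, 4360, 19590 and 13510 cells were kept. Days 3 and 7 shared 43 barcodes, Days 3 and 14 shared 19 and Days 7 and 14 shared 111.

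Levels are given as CPM, the UMIs of a gene divided by the summed UMIs of the same cells and brought to the usual CPM scale. Only transcript ends were counted, so CPM of different genes can be set side by side without a correction for length. Intervals are at the 95% level (exact Poisson around a CPM, exact binomial around a ratio, Clopper-Pearson around a share of cells) and hold counting error alone. UMIs of 1 library are not independent of its dissociation and capture, so the intervals say how exactly a library was counted and not how wounds vary.

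Cells were placed in classes by markers that included none of the 10 genes. Fibroblast-like cells, in which 8 of 8 fibroblast markers were found, numbered 403, 5898 and 5239 on Days 3, 7 and 14, and macrophage-like cells, with 9 of 9 macrophage markers, numbered 2715, 9511 and 3236. Their depth differed, with medians of 44354 UMIs per fibroblast-like cell on Day 3, 10356 on Day 7 and 10520 on Day 14. In addition, they came from different clusters. Cluster 13 (led by *Cxcl5* and *Saa3*) held 92.8% of them on Day 3, cluster 3 (led by *H19*, *Tnn* and *Lrrc15*) held 50.8% on Day 7, and cluster 1 (led by *Mgp* and *Cilp*) held 75.1% on Day 14. A class on 2 days is therefore not the same mixture of clusters, and values within clusters are given beside those of the class. With 1 library per day and no batch alignment, another mixture of cells and a difference between libraries cannot be told apart.

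*Has1* and *Tnfaip6* are shown first by their promoters, because these were the members whose levels went together most closely over cell classes and days (Pearson's r = 0.93 between their log2(CPM + 1) values over 22 class-by-library sums, which share libraries and free RNA). Each window runs from 250 bases before to 50 bases after the RefSeq gene start (GRCm38.p6) and is written 5′ to 3′ on the gene's strand. Capitals mark the letters of 2 motifs searched on both strands, TGACGTCA (the cyclic AMP response element) in *Has1* and TGANTCA (the AP-1 site) in *Tnfaip6*.
*Has1*, chr17:17855139-17855438, minus strand: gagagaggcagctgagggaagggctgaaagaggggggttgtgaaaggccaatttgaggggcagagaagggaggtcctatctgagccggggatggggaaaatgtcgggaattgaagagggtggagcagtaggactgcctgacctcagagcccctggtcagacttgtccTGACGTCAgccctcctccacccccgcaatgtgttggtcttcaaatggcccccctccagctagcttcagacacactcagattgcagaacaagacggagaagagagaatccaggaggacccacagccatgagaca
*Tnfaip6*, chr2:52037863-52038162, plus strand: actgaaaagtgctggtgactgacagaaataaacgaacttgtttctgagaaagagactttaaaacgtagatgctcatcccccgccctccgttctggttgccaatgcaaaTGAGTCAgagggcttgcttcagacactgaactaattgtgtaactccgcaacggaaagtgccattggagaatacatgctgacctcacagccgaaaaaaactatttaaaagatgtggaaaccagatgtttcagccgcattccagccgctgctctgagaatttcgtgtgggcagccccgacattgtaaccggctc
Of the 7 members with a window, TGACGTCA was found in 1 (*Has1*), TGANTCA in 1 (*Tnfaip6*) and the TATA box letters TATAAA in 0. Of all 27025 windows of 300 bases, 1.88% held TGACGTCA, 7.93% TGANTCA and 14.2% TATAAA. The motifs were chosen after the windows had been read, and a match is a run of letters and not a measured site.

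*Has1*, at chr17:17843323-17855205 on the minus strand (GRCm38, GENCODE), codes for a hyaluronan synthase and was the most abundant synthase transcript of the wound. In fibroblast-like cells its level was 1051 CPM on Day 3 (interval 1037 to 1066), 479 on Day 7 (473 to 484) and 1079 on Day 14 (1071 to 1088). Day 7 was the lowest, and the 3 intervals did not meet. Day 7 over Day 3 gave a log2 ratio of -1.14 (-1.16 to -1.11) and Day 14 over Day 7 gave 1.17 (1.15 to 1.19). Both comparisons contain the Day 7 library, so they are not independent of each other. Fibroblast-like cells held 98.9%, 96.7% and 91.9% of all *Has1* UMIs of the kept cells on Days 3, 7 and 14.

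Within the fibroblast-like clusters, Days 3 and 7 could be compared in cluster 13 alone, where *Has1* was 1046 CPM on Day 3 and 251 on Day 7, a log2 ratio of -2.06. The leading genes of cluster 13 also included *Ube2c*, *Top2a* and *Pclaf*. Whether its cells were the same mixture on both days was not tested. In the other 7 clusters measured on both days, none of them fibroblast-like, the ratio was above 0, and the unnamed cluster 14, with all 8 fibroblast markers, was at 0.32 (-0.24 to 0.93). The intervals of clusters 8, 9 and 11 also included 0. Apart from cluster 14, these 7 clusters held at most 48.2 CPM of *Has1* on either day. Over the same days the 8 fibroblast markers in macrophage-like cells went from 419 to 3813 CPM. The part of fibroblast RNA in these cluster ratios was not tested. From Day 7 to Day 14 it went from 401 to 1030 CPM in cluster 1, from 709 to 1328 in cluster 4 (led by *Pi16* and *C3*) and from 432 to 705 in cluster 3. After every cell was thinned to 500 UMIs, a *Has1* UMI was left in 38.5% of fibroblast-like cells on Day 3 (33.7% to 43.4%), 19.7% on Day 7 (18.7% to 20.8%) and 36.7% on Day 14 (35.4% to 38.1%). Without thinning the shares were 93.5%, 68.5% and 87.3%.

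**Figure D1:**
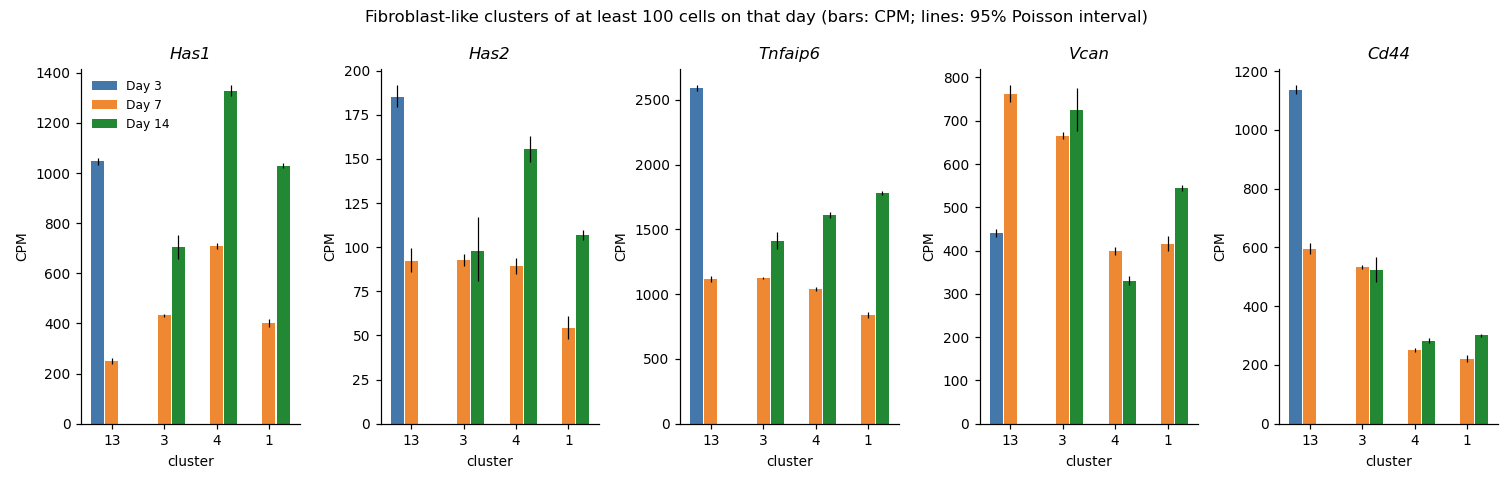
CPM (linear axes from 0) of *Has1*, *Has2*, *Tnfaip6*, *Vcan* and *Cd44* in the 4 fibroblast-like clusters, with 1 bar per library for clusters of at least 100 cells on that day and lines for 95% Poisson intervals. *Has1* stood at 251 to 709 CPM in every Day 7 bar and at 705 to 1328 in the Day 14 bars, while *Cd44* was highest in cluster 13 on Day 3, at 1136 CPM.

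*Has2*, at chr15:56665627-56694539 on the minus strand, codes for the synthase known to be needed for heart development and to make very long chains. It was lower than *Has1* in fibroblast-like cells, at 186 CPM on Day 3 (180 to 192), 88.7 on Day 7 (86.4 to 91.1) and 117 on Day 14 (114 to 119). Day 3 was the highest and Day 7 the lowest. The log2 ratio was -1.07 (-1.13 to -1.01) for Day 7 over Day 3 and 0.39 (0.34 to 0.45) for Day 14 over Day 7. *Has2* made up 15.01%, 15.6% and 9.75% of the synthase UMIs of fibroblast-like cells on Days 3, 7 and 14. Within clusters *Has2* went from 54.2 to 107 CPM in cluster 1 from Day 7 to Day 14 (log2 ratio 0.98, beside 1.36 for *Has1*), from 89.3 to 156 in cluster 4 (0.80 beside 0.91) and from 92.8 to 97.8 in cluster 3 (0.08, -0.21 to 0.34, beside 0.70). In cluster 13 it was 185 CPM on Day 3 and 92.4 on Day 7. In single cells they were often found together. On Day 7, 49.3% of the fibroblast-like cells with a *Has1* UMI also had a *Has2* UMI, against 27.6% of those without one, at median depths of 10636 and 9610 UMIs.

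Pericyte-like cells, which wrap small vessels, carried the opposite balance of synthases. They held 149 CPM of *Has2* on Day 7 (128 to 173) and 289 on Day 14 (265 to 315), above fibroblast-like cells on both days. Their *Has1* was 19.7 and 117 CPM. *Has2* made up 87.9% of their synthase UMIs on Day 7 and 71.2% on Day 14, where *Has1* made up 11.6% (7.51% to 16.9%) and 28.8% (25.5% to 32.2%). They numbered 10, 182 and 430 cells on Days 3, 7 and 14, so no level is given for Day 3. At equal depth, 11.6% of pericyte-like cells had a *Has2* UMI on Day 14 (8.75% to 15.04%), against 5.63% of fibroblast-like cells. On Day 7 the shares were 3.30% (1.22% to 7.04%) and 4.12%, so the thinned shares of that day gave no order. The few epithelial-like cells of Day 7 (43 cells) also held more *Has2* (28 UMIs, 73.7 CPM) than *Has1* (9 UMIs, 23.7 CPM), whereas the 756 of Day 14 held 140 *Has2* UMIs (26.4 CPM) and 739 of *Has1* (139 CPM).

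*Has3*, at chr8:106870242-106884566 on the plus strand, codes for the third synthase, which is known from keratinocytes. It was rare in the wound, with 10, 40 and 54 UMIs in the whole libraries of Days 3, 7 and 14. Epithelial-like cells held 18 of 33 *Has3* UMIs of the kept cells on Day 7 and 24 of 49 on Day 14, at 47.4 and 4.52 CPM. With the full expected doublet rate removed, the highest class on Day 7 was pericyte-like, a class that held 1 *Has3* UMI on that day under the settings used here. Fibroblast-like cells were at 0.51, 0.14 and 0.26 CPM. Too few UMIs were found for a ratio between days to be counted.

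**Figure D2:**
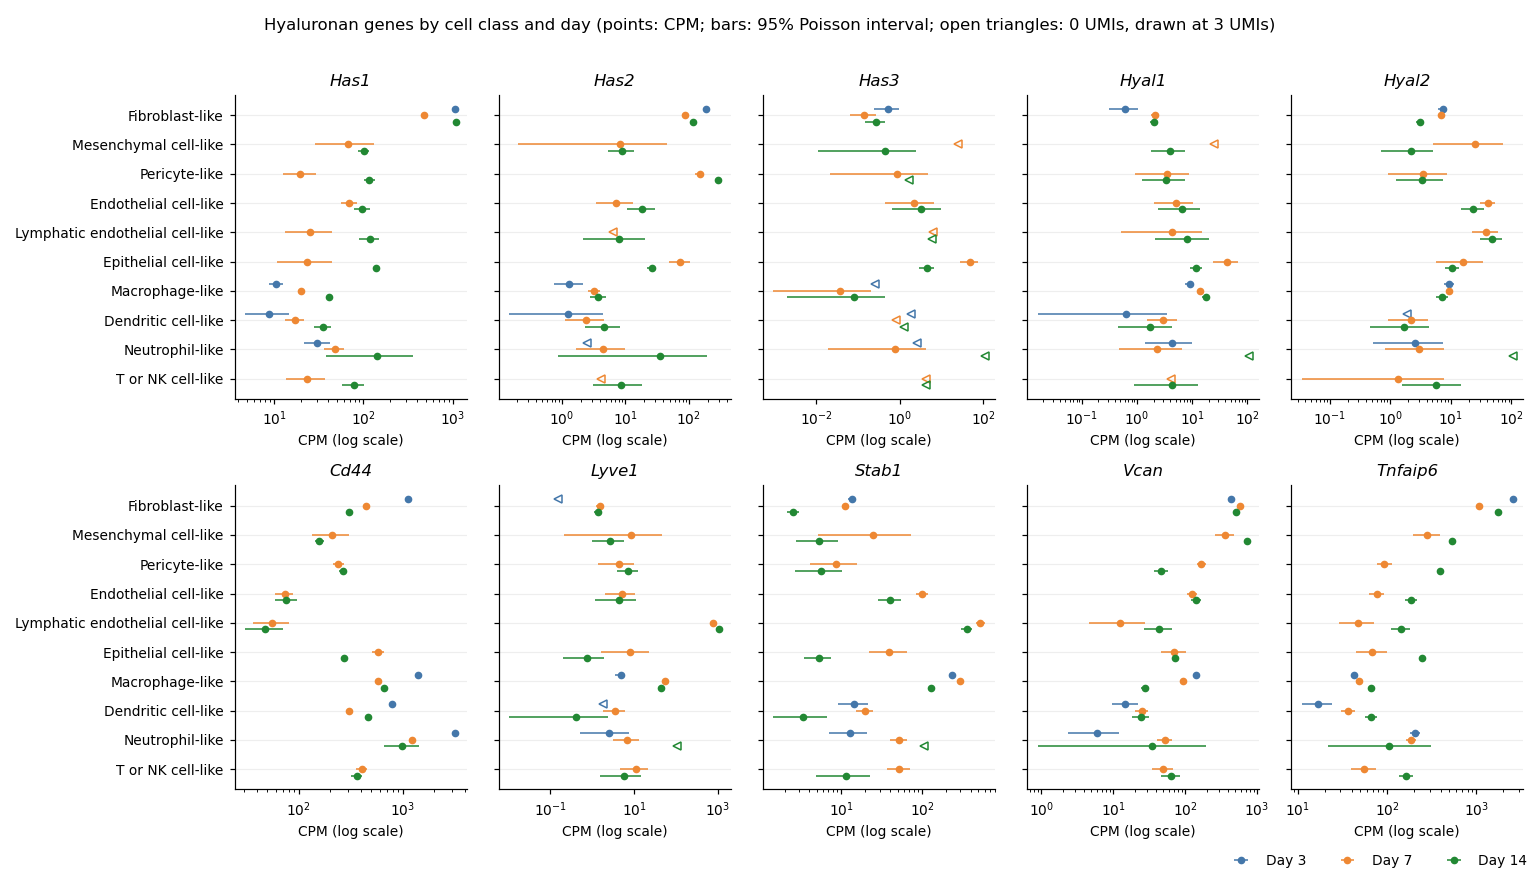
CPM (log axes, 1 panel per gene) of the 10 genes in 10 cell classes, coloured by day, for classes of at least 20 cells in the library, with 95% Poisson intervals as bars and open triangles at the level of 3 UMIs where no UMI was found. *Has1* and *Tnfaip6* were highest in fibroblast-like cells on all 3 days, *Cd44* in neutrophil-like cells on all 3 days, *Lyve1* in lymphatic endothelial-like cells on Days 7 and 14, and *Has2* in pericyte-like cells on Days 7 and 14.

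UMIs of *Has1* and *Has2* in other classes were set beside those of collagen, a main RNA of fibroblasts. In macrophage-like cells the summed level of the 8 fibroblast markers was 419, 3813 and 5361 CPM on Days 3, 7 and 14, and *Has1* was 10.6, 20.1 and 41.7 CPM. If *Has1* had accompanied *Col1a1*, *Col1a2* and *Col3a1* in the ratio of fibroblast-like cells, macrophage-like cells would have held 79.2, 428 and 569 *Has1* UMIs, and they held 129, 540 and 519. For *Has2* the same sum gave 14.0, 79.3 and 61.4 UMIs against 16, 87 and 47 found. The part of fibroblast RNA in these levels was not tested. On Day 3 the 594 macrophage-like cells without a UMI of the 3 collagen genes held 14.5 CPM of *Has1* (9.66 to 21.02, from 28 UMIs). On Days 7 and 14 only 27 and 5 macrophage-like cells were without one. Other classes lay on both sides of the sum, with 36 *Has1* UMIs against 15.04 in neutrophil-like cells of Day 3, 95 against 45.7 in endothelial-like cells of Day 7 and 54 against 104 in T or NK cell-like cells of Day 14. In pericyte-like cells the same sum gave 15.7 and 25.7 *Has2* UMIs on Days 7 and 14, and 174 and 513 were found. Their *Has1* fell short of it, at 23 UMIs against 84.9 on Day 7 and 207 against 238 on Day 14. The sum cannot tell collagen made by a class itself from fibroblast RNA. No conclusion is therefore drawn from this shortfall.

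*Hyal1*, at chr9:107576927-107581710 on the plus strand, codes for a lysosomal hyaluronidase. Macrophage-like cells held 86.0%, 67.8% and 47.6% of its UMIs on Days 3, 7 and 14. Its level there was 9.14 CPM on Day 3 (7.52 to 11.01), 14.0 on Day 7 (12.6 to 15.5) and 17.5 on Day 14 (15.3 to 19.99). Only the Day 3 interval stood clear of the others, and both successive ratios stayed within 2-fold, at log2 values of 0.62 (0.31 to 0.93) and 0.32 (0.07 to 0.57). Within clusters 2, 5 and 7 the ratio of Day 7 over Day 3 was -0.18, 0.13 and 0.43, each with an interval that included 0. Epithelial-like cells were higher on Day 7, at 42.1 CPM (24.1 to 68.4, from 16 UMIs), and lower on Day 14, at 11.7 (8.95 to 14.97), where they held 13.5% of *Hyal1* UMIs. With the full expected doublet rate removed, macrophage-like cells were the highest on Day 7. In fibroblast-like cells it was low, at 0.61, 2.11 and 2.04 CPM from 12, 134 and 116 UMIs, with a log2 ratio of 1.79 (0.94 to 2.78) for Day 7 over Day 3. Macrophage RNA was also found in those cells, and in the ratio of *Hyal1* to the 9 macrophage markers it would bring 1.82, 24.9 and 10.2 *Hyal1* UMIs. *Hyal1* overlaps *Naa80* and *Hyal3* on the same strand, and the effect of this overlap on its UMI count was not tested.

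*Hyal2*, at chr9:107567945-107572779 on the plus strand, codes for a hyaluronidase anchored at the cell surface. Its highest levels were in the vessels, at 40.9 CPM on Day 7 (30.9 to 53.1) and 23.6 on Day 14 (14.8 to 35.7) in endothelial-like cells, and 38.2 (22.6 to 60.4) and 47.6 (30.5 to 70.8) in lymphatic endothelial-like cells. These intervals overlapped each other. Fibroblast-like cells had 7.35, 7.04 and 3.12 CPM, with a log2 ratio of -1.18 (-1.44 to -0.92) for Day 14 over Day 7. The 3 fibroblast-like clusters measured on both days lay below 0, at -0.97 to -0.62, though the interval of cluster 3 included 0 (-0.62, -2.08 to 0.52). Macrophage-like cells were at 9.47, 9.33 and 7.23 CPM. *Hyal2* was lower on Day 14 than on Day 7 in the 4 classes with at least 50 UMIs over both days, although the interval of epithelial-like cells included 0 (-0.58, -1.79 to 0.92). Lymphatic endothelial-like cells, with fewer UMIs, were at 0.32 (-0.63 to 1.28).

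*Cd44*, at chr2:102811141-102901665 on the minus strand, codes for the main hyaluronan receptor of leukocytes and mesenchymal cells, whose splice forms cannot be told apart by counts of transcript ends. It was found in every class and was highest in neutrophil-like cells, at 3161 CPM on Day 3 (3060 to 3264), 1223 on Day 7 (1164 to 1284) and 990 on Day 14 (658 to 1431, from 23 cells). On Day 14 this interval overlapped that of macrophage-like cells, which were at 1409, 582 and 662 CPM and were the highest on that day with a class set per cell. Fibroblast-like cells were at 1121, 443 and 303 CPM. Endothelial-like cells, at 73.0 and 76.1 CPM on Days 7 and 14, and lymphatic endothelial-like cells, at 55.2 and 47.6, had the lowest levels.

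The Day 3 level of *Cd44* was higher than that of Day 7 in 4 of 4 classes with enough cells on both days. The log2 ratio of Day 7 over Day 3 was -1.34 (-1.36 to -1.31) in fibroblast-like cells and -1.27 (-1.31 to -1.24) in macrophage-like cells, and it was -1.37 in both dendritic cell-like and neutrophil-like cells. It was below 0 in 8 of 8 clusters measured on both days, from -1.53 to -0.46, the last in the unnamed cluster 14, whose interval included 0 (-0.93 to 0.03). In the clusters that held most Day 3 cells it was under 2-fold, at -0.93 in cluster 13 of the fibroblast-like cells, the only one of them measured on both days, and at -0.49 in cluster 5 of the macrophage-like cells, while macrophage-like clusters 2, 7 and 8 were at -1.13, -1.17 and -1.23. The class ratios thus also hold another mixture of clusters on each day. The median over all genes counted was -0.11 in fibroblast-like and -0.02 in macrophage-like cells. At equal depth 36.2%, 17.3% and 12.2% of fibroblast-like cells and 46.9%, 24.0% and 26.9% of macrophage-like cells had a *Cd44* UMI on Days 3, 7 and 14.

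From Day 7 to Day 14 the class and its clusters parted. In fibroblast-like cells as a whole *Cd44* went from 443 to 303 CPM, a log2 ratio of -0.55 (-0.58 to -0.52). Within cluster 1 it went from 222 to 301 CPM and within cluster 4 from 250 to 283, while cluster 3 was at 534 and 525. Clusters 13 and 3, the highest on Day 7 at 596 and 534 CPM, held 9.33% and 50.8% of fibroblast-like cells on Day 7 and 0.88% and 2.29% on Day 14. The lower class level on Day 14 came with another mixture of clusters, and the log2 ratios within clusters 1, 4 and 3 were 0.44, 0.18 and -0.02. The part of the mixture in the class ratio was not tested.

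**Figure D3:**
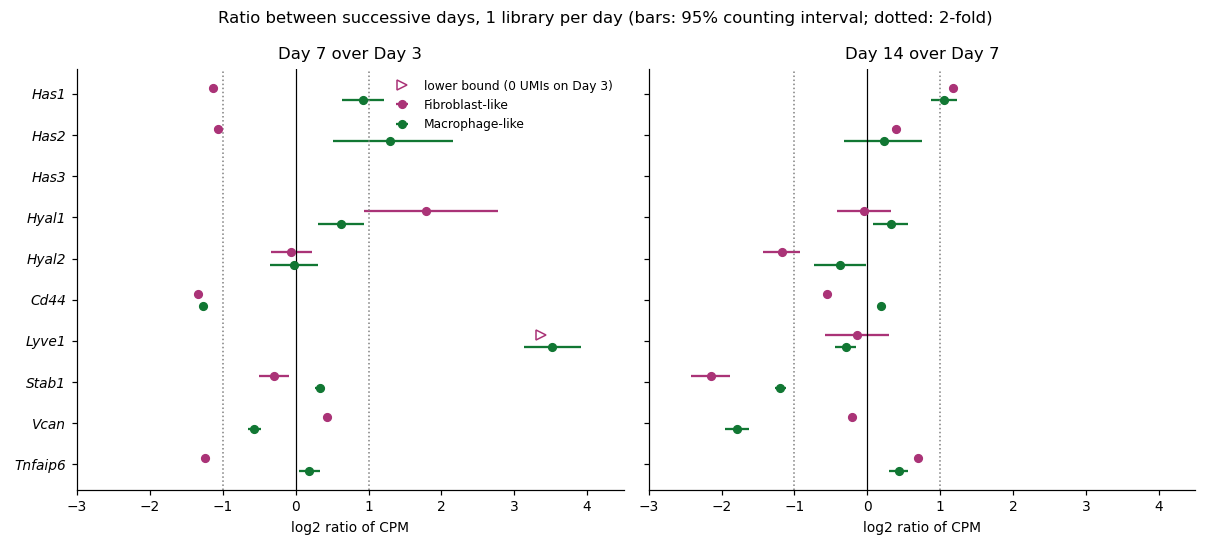
Log2 ratios of CPM between successive days for the members with at least 50 UMIs over both libraries, in fibroblast-like and macrophage-like cells (points, with 95% counting intervals as bars), with 0 and 2-fold marked and *Has3* left empty for want of UMIs. *Cd44* was beyond 2-fold lower on Day 7 in both classes, *Stab1* beyond 2-fold lower on Day 14 in both, and the open triangle shows *Lyve1* at its lower bound. In fibroblast-like cells of Day 7 macrophage RNA would bring 534 of the 714 *Stab1* UMIs and 97.1 of the 100 of *Lyve1*.

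*Lyve1*, at chr7:110850607-110863239 on the minus strand, codes for the hyaluronan receptor of lymphatic endothelium, also carried by some tissue-resident macrophages. Lymphatic endothelial-like cells, which had been named without it, held 777 CPM on Day 7 (699 to 860, 54 cells) and 1053 on Day 14 (965 to 1146, 50 cells). Another class was the highest in *Lyve1* on these days under some other settings, listed at the end. Macrophage-like cells were at 4.78 CPM on Day 3 (3.63 to 6.18), 54.6 on Day 7 (51.8 to 57.5) and 44.5 on Day 14 (40.9 to 48.4). They held 73.9% of all *Lyve1* UMIs on Day 7 and 46.1% on Day 14. Day 7 over Day 3 gave a log2 ratio of 3.51 (3.14 to 3.92), and Day 14 over Day 7 gave -0.30 (-0.44 to -0.15).

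Among macrophage-like clusters *Lyve1* was highest in cluster 7 (led by *Cbr2*, *Cd163* and *Folr2*). The small cluster 22 (led by *Hist1h1b*, *Stmn1* and *Mki67*) held 106 CPM on Day 7 (72 UMIs in 119 cells) and 1.33 on Day 14 (1 UMI in 104 cells), a log2 ratio of -6.32 (-11.6 to -3.80). On Day 7 cluster 6 (led by *Slamf7* and *Il10*) held 54.9 CPM, and the others at most 21.6. *Lyve1* and *Stab1* were kept out of the genes that formed the clusters, and both were among the genes that led cluster 7. Cluster 7 held 6.45%, 16.9% and 15.6% of macrophage-like cells on Days 3, 7 and 14, and *Lyve1* in it was 20.4, 228 and 131 CPM. From Day 3 to Day 7 its share of the class and the level within it were both higher, and on Day 14 the level was lower than on Day 7 (log2 ratio -0.80, -1.01 to -0.60). In cluster 5 *Lyve1* was also higher on Day 7 than on Day 3, at 21.6 against 3.74 CPM. In cluster 2 it was 5.97 against 1.21 CPM, the latter from 1 UMI, with an interval of the log2 ratio that included 0 (2.31, -0.22 to 7.64). Only 6.48% of macrophage-like cells had a *Lyve1* UMI on Day 7, and 68.0% of these had a *Stab1* UMI, against 38.5% of the cells without *Lyve1*, at median depths of 2966 and 2516 UMIs.

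Fibroblast-like cells held 0 *Lyve1* UMIs on Day 3 (exact interval up to 0.187 CPM) and 1.57 CPM on Day 7. Set against a floor of 3 UMIs over the group, 0.152 CPM, this was at least 10.3-fold higher, while the counting interval of the log2 ratio, which holds the error of both days, reached down to 3.05, a smaller fold. The 100 UMIs of Day 7 stood beside 97.1 that the ratio of *Lyve1* to the 9 macrophage markers would bring, and the 81 UMIs of Day 14 beside 25.9. The summed level of those markers in fibroblast-like cells was 97.9, 378 and 177 CPM on Days 3, 7 and 14, against 9690, 13516 and 17240 in macrophage-like cells.

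*Stab1*, at chr14:31139013-31168641 on the minus strand, codes for stabilin-1, a scavenger receptor of macrophages and sinusoidal and lymphatic endothelium. Macrophage-like cells held 89.5%, 85.8% and 78.0% of its UMIs on Days 3, 7 and 14, at 238 CPM (230 to 247), 300 (294 to 307) and 131 (125 to 138). Lymphatic endothelial-like cells stood higher, at 526 CPM on Day 7 (463 to 596) and 357 on Day 14 (307 to 413), and other endothelial-like cells were at 100 and 40.7. Under some other settings, listed at the end, another class was the highest in *Stab1* on these days. The Day 14 level was lower than that of Day 7 in 5 of 5 classes and 10 of 10 clusters measured on both days, though the interval of cluster 8 included 0 (-0.25, -0.57 to 0.06). In macrophage-like cells the log2 ratio was -1.19 (-1.27 to -1.11), and in cluster 7 alone it was -1.26, from 654 to 273 CPM. Fibroblast-like cells had 13.8, 11.2 and 2.54 CPM of *Stab1*, where macrophage RNA in its own ratio would bring 47.5 of the 272, 534 of the 714 and 76.7 of the 144 UMIs found.

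**Figure D4:**
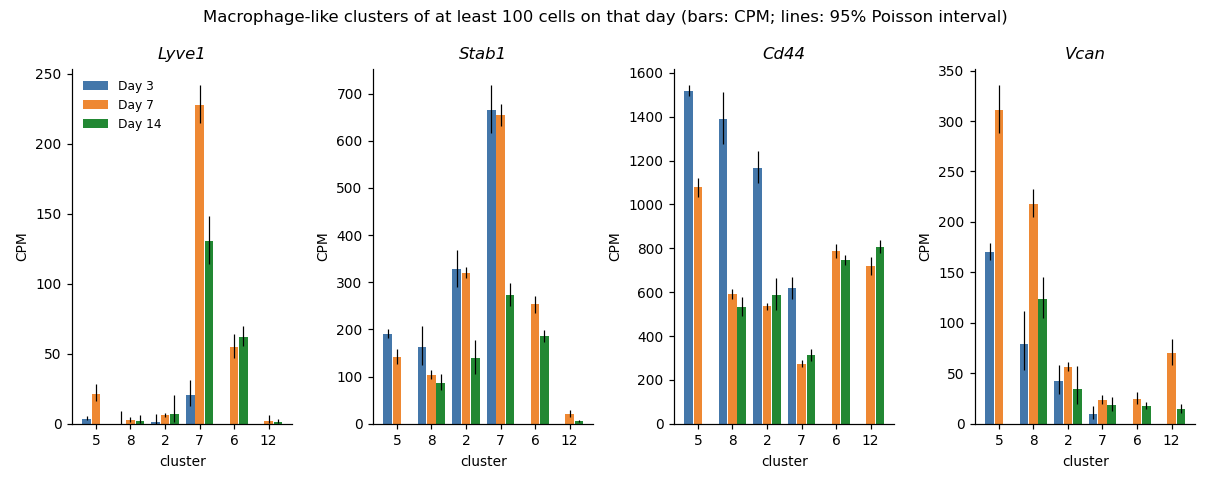
CPM (linear axes from 0) of *Lyve1*, *Stab1*, *Cd44* and *Vcan* in the 6 largest macrophage-like clusters, with 1 bar per library for clusters of at least 100 cells on that day and lines for 95% Poisson intervals. *Lyve1* and *Stab1* were highest in cluster 7, where *Cd44* was lowest on each day, and *Vcan* was highest in cluster 5 on Day 7, at 311 CPM.

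*Vcan*, at chr13:89655312-89742509 on the minus strand, codes for versican, a large proteoglycan that binds hyaluronan through its N-terminal domain. Fibroblast-like cells held 82.9%, 91.5% and 78.1% of its UMIs and were at 439 CPM on Day 3 (429 to 448), 589 on Day 7 (583 to 595) and 510 on Day 14 (504 to 516). Day 7 was the highest, where *Has1*, *Has2* and *Tnfaip6* were at their lowest, though both *Vcan* ratios stayed within 2-fold. In cluster 13 it went from 440 CPM on Day 3 to 762 on Day 7. From Day 7 to Day 14 it was higher in cluster 1 (416 and 545 CPM) and cluster 3 (665 and 724) and lower in cluster 4 (399 and 331), so the lower class level of Day 14 was seen in 1 of these 3 clusters. On Day 14 the highest level was in mesenchymal-like cells (749 cells, led by *Prlr* and *Slc26a7*), at 736 CPM (701 to 772), where collagen in the ratio of fibroblast-like cells would bring 83.5 of the 1662 UMIs. The marker list of these cells came from the study's own cluster table, made on these libraries.

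Macrophage-like cells also held *Vcan*, at 142 CPM on Day 3 (135 to 149), 95.6 on Day 7 (91.9 to 99.4) and 27.7 on Day 14 (24.9 to 30.8). Day 14 over Day 7 gave a log2 ratio of -1.79 (-1.95 to -1.62) for the class, and within clusters it was -2.25 in cluster 12, -0.82 in cluster 8, -0.71 (-1.56 to 0.02) in cluster 2, -0.50 in cluster 6 and -0.33 (-0.93 to 0.25) in cluster 7. Fibroblast RNA in its collagen ratio would bring 33.0 of the 1721 UMIs of Day 3, 526 of the 2572 of Day 7 and 268 of the 345 of Day 14. On Day 7 *Vcan* was highest in cluster 5 (led by *Chil3* and *Arg1*), at 311 CPM, and cluster 8 (led by *Ly6c2* and *Ccr2*), at 218 CPM, and it was 23.3 CPM in cluster 7. From Day 3 to Day 7 the class level was lower while the levels within clusters were higher, from 171 to 311 CPM in cluster 5, from 78.7 to 218 in cluster 8, from 9.73 to 23.3 in cluster 7 and from 42.2 to 56.7 in cluster 2 (log2 ratio 0.43, -0.07 to 0.96). The part of fibroblast RNA in these cluster levels was not tested. Cluster 5 held 75.5% of macrophage-like cells on Day 3, 8.52% on Day 7 and 0.19% on Day 14.

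*Tnfaip6*, at chr2:52038009-52056686 on the plus strand, codes for TSG-6, a secreted protein induced in inflammation that binds hyaluronan and transfers heavy chains of inter-alpha-inhibitor onto it. It was the most abundant of the 10 genes in fibroblast-like cells, at 2550 CPM on Day 3 (2528 to 2572), 1079 on Day 7 (1071 to 1087) and 1740 on Day 14 (1730 to 1751). Fibroblast-like cells held 98.2%, 96.4% and 79.0% of its UMIs. On Day 14 most of the rest lay in unnamed cells, chiefly cluster 10, which is described below. As with *Has1*, Day 7 was the lowest, with log2 ratios of -1.24 (-1.26 to -1.22) for Day 7 over Day 3 and 0.69 (0.68 to 0.70) for Day 14 over Day 7. Within cluster 13 it was 2589 CPM on Day 3 and 1117 on Day 7 (-1.21), and Day 14 over Day 7 gave 1.09 on the log2 scale in cluster 1, 0.63 in cluster 4 and 0.33 in cluster 3. *Tnfaip6* was lower on Day 14 than on Day 3 (log2 ratio -0.55), while *Has1* stood near its Day 3 level (0.04). Both values leave out cluster 10, whose *Has1* level was below that of the class. At equal depth 58.8%, 35.4% and 47.1% of fibroblast-like cells had a *Tnfaip6* UMI. On Day 7, 94.2% of the cells with a *Has1* UMI had one, against 68.8% of the cells without *Has1*.

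Neutrophil-like cells of Day 3 held 242 *Tnfaip6* UMIs (206 CPM, 181 to 233), where collagen in the ratio of fibroblast-like cells would bring 36.5, and mesenchymal-like cells of Day 14 held 1193 against 285. In macrophage-like cells of Day 14 the 824 UMIs found stood beside 917. On Day 3 the macrophage-like cells without a collagen UMI held 39.5 CPM of *Tnfaip6* (31.1 to 49.4) and 153 of *Vcan* (136 to 172), near the levels of the whole class.

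An unnamed cluster of 1471 cells (cluster 10, led by *Igfbp2* and *Tnmd*, 1432 of them on Day 14) carried all 8 fibroblast markers but stayed outside the class, since *Ndufa4l2*, a pericyte marker, was among its top genes. On Day 14 it held 1614 CPM of *Tnfaip6*, near the fibroblast-like level, but only 238 CPM of *Has1*, 57.6 of *Has2* and 143 of *Cd44*. With it in the class, the log2 ratio of *Has1* for Day 14 over Day 7 was 0.95, under 2-fold. These cells had the *Tnfaip6* level of fibroblast-like cells without their *Has1* level. Most of the Day 14 UMIs of *Has1* and *Tnfaip6* outside the fibroblast-like class lay in this cluster.

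The members were then counted against all genes. A gene was counted with at least 50 UMIs over both libraries and called when its CPM differed by at least 2-fold, and *Has3* fell short in every comparison. In fibroblast-like cells, from Day 3 to Day 7, 2 of 9 members were higher (*Hyal1* and *Lyve1*), beside 10.4% of 13006 genes, and 4 were lower (*Has1*, *Has2*, *Cd44* and *Tnfaip6*), beside 9.43%. The median log2 ratio was -0.30 over the 9 members, also with *Lyve1* at its lower bound, and -0.11 over all genes. From Day 7 to Day 14, 1 of 9 was higher (*Has1*), beside 4.47% of 13589 genes, and 2 were lower (*Hyal2* and *Stab1*), beside 9.4%. Here the medians were -0.14 and -0.19. The *Lyve1* call rests on 100 UMIs of Day 7, beside 97.1 that macrophage RNA would bring. For *Stab1* 714 and 144 UMIs were found on Days 7 and 14, beside 534 and 76.7. For *Hyal1* 12 and 134 were found on Days 3 and 7, beside 1.82 and 24.9. The part of macrophage RNA in these calls was not tested.

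In macrophage-like cells, from Day 3 to Day 7, 2 of 9 members were higher (*Has2* and *Lyve1*), beside 9.15% of 11120 genes, and 1 was lower (*Cd44*), beside 4.6%, with medians of 0.33 and -0.02. From Day 7 to Day 14, 1 was higher (*Has1*), beside 3.84% of 11370 genes, and 2 were lower (*Stab1* and *Vcan*), beside 5.53%, with medians of 0.19 and -0.13. The *Has1* and *Has2* UMIs of macrophage-like cells are given beside those of the collagen ratio above. Of the 4 lower calls in fibroblast-like cells, those of *Has1* and *Has2* were each lost under 5 of the other settings and that of *Tnfaip6* under 1, and the higher call of *Has1* on Day 14 under 4. The lower call of *Hyal2* on Day 14 was lost under 2. In macrophage-like cells the higher call of *Has2* on Day 7 was lost under 2, that of *Has1* on Day 14 under 4 and the lower call of *Stab1* on Day 14 under 3. With 9 members, these counts are a description of the named genes and not of the group.

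Genes that supply or use hyaluronan were described with them, from a list of 38. In fibroblast-like cells the enzymes that make its UDP-sugar precursors were 0 of 7 higher and 3 of 7 lower on Day 7 than on Day 3 (beside 10.4% and 9.43% of all genes), namely *Uap1*, *Pgm3* and *Gnpnat1*, which act on the way to UDP-N-acetylglucosamine. *Uap1* was at 530, 249 and 446 CPM on Days 3, 7 and 14, a low point on Day 7 like that of *Has1*. *Ugdh*, which makes UDP-glucuronic acid, was at 1404, 849 and 943 CPM. From Day 7 to Day 14, 0 of 7 were called in either direction (beside 4.47% higher and 9.4% lower of all genes). In macrophage-like cells *Uap1* was at 39.8, 37.8 and 76.7 CPM.

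Among 18 other binding proteins and receptors, 8 were counted in fibroblast-like cells from Day 3 to Day 7, with 1 higher and 4 lower, beside the same shares. The higher one was *Itih5*, of the heavy-chain family of inter-alpha-inhibitor, at 34.9, 191 and 305 CPM. *Ptx3*, a pentraxin that is held in hyaluronan matrix together with TSG-6, was among the lower, at 2359, 830 and 1104 CPM. Between Days 7 and 14, 10 were counted, with 2 higher (*Acan* and *Itih2*) and 3 lower (*Hmmr*, *Hapln4* and *Bcan*), beside 4.47% and 9.4% of all genes. Each of these was at no more than 12.1 CPM on either day. In macrophage-like cells 6 were counted from Day 3 to Day 7, with 4 higher (*Hmmr*, *Layn*, *Itih5* and *Ptx3*), beside 9.15% of all genes, and 1 lower, beside 4.6%. The lower one was *Tlr2*, a pattern receptor, at 421, 183 and 177 CPM. Of the 4 higher, *Ptx3* was at 14.7, 35.9 and 39.2 CPM and the others at no more than 1.15 CPM on Day 3. *Tlr4* was at 60.0, 49.4 and 17.7 CPM. Among the 6 other turnover genes in fibroblast-like cells, 2 were higher and 0 lower from Day 3 to Day 7 (beside 10.4% and 9.43%), and 0 were higher and 1 lower from Day 7 to Day 14 (beside 4.47% and 9.4%). *Hexa*, a subunit of lysosomal hexosaminidase, was at 56.3, 164 and 153 CPM, and *Hyal3*, the other higher one, was at most 0.71 CPM on any day. *Cemip*, which codes for a protein needed for hyaluronan breakdown in skin fibroblasts, was the lower one, at 8.52, 5.17 and 0.11 CPM, the last from 6 UMIs. *Cemip2* was at 115, 57.4 and 33.4 CPM and *Gusb*, lysosomal beta-glucuronidase, at 56.7, 41.9 and 24.6, each step under 2-fold. Proteins that link CD44 to the cytoskeleton were 0 of 3 called in each of the 4 comparisons, beside 3.84% to 10.4% of all genes in each direction. The 4 versican-cleaving proteinases had 0 calls in fibroblast-like cells (beside 4.47% to 10.4% of all genes in each direction). The 3 counted in macrophage-like cells were all higher on Day 7 than on Day 3, at 1.31 to 1.98 on the log2 scale (beside 9.15% of all genes), from levels of at most 3.38 CPM on Day 3. The summed fibroblast markers in those cells went from 419 to 3813 CPM. Over all lists in fibroblast-like cells, 3 of 28 genes counted were higher, near the 10.4% of all genes, and 7 were lower, beside 9.43%, on Day 7 than on Day 3. In macrophage-like cells 8 of 23 were higher, beside 9.15%, and 1 was lower, beside 4.6%. On Day 7 all 8 were lower there than in fibroblast-like cells, such as *Adamts1* at 13.3 against 405 CPM, *Ptx3* at 35.9 against 830 and *Hmmr* at 4.39 against 12.1. The part of fibroblast RNA in these calls was not tested. Between Days 7 and 14, 2 of 30 were higher and 4 lower in fibroblast-like cells (beside 4.47% and 9.4%). In macrophage-like cells 1 of 25 was higher and 1 lower (beside 3.84% and 5.53%).

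The genes most like each member were taken over the 22 class-by-library sums of at least 50 cells, among 7045 genes with at least 50 CPM in 1 sum. *Has1* was closest to *Sema3b* (r = 0.94), *Tnfaip6* (0.93) and *Gfpt2* (0.93), which codes for the enzyme of the first step of hexosamine synthesis. *Has2* was closest to *Scn7a* (0.94), *Pcdh19* (0.94) and *Ms4a4d* (0.92). *Tnfaip6* was closest to *Has1*, *Dclk1* (0.91) and *Pcsk5* (0.89), and *Vcan* to *Gpr153* (0.85), *Esr1* (0.84) and *Scara3* (0.83). *Lyve1* was closest to the lymphatic genes *Mmrn1* (0.85), *Reln* (0.83) and *Ccl21a* (0.83), 3 of the markers that named its class. *Stab1* was closest to *Dgkz* (0.83), *Hmox1* (0.82) and *2510039O18Rik* (0.81), and *Cd44* to *Gm48302* (0.92), *Ell2* (0.90) and *Cers6* (0.90). *Has3*, *Hyal1* and *Hyal2* stayed below 50 CPM in every sum and were not compared. These sums share libraries and free RNA, so r describes likeness and has no test.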

How the data were processed

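The authors deposited 1 table of raw UMI counts per gene and cell barcode for each library, made with Cell Ranger 6.0.0 on mm10 per the submitters' processing notes, from Chromium 3′ libraries. The deposited counts were not normalised. Gene symbols were matched by Ensembl identifier for 32158 of 32285 genes. Positions are those of GENCODE M21 (GRCm38). The members and all lists were chosen with earlier results of these data known.

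Filters removed cells under 200 genes, under 500 UMIs or over 10% mitochondrial UMIs. Simulated doublets among 50 nearest neighbours scored each cell, and the top scores were removed (92, 1978 and 962 cells, or 2.07%, 9.17% and 6.65%, on Days 3, 7 and 14). The rest, 37460 cells, were clustered together without batch alignment (2000 variable genes, 30 components, 15 neighbours, Leiden at resolution 1, with scikit-learn 1.9.0 and leidenalg 0.10.2), giving 28 clusters, of which 4 stayed unnamed. Names came from marker lists without members, and the scoring rule, not the markers, was adjusted after clusters were seen and before member values were computed.

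UMIs were summed per class and library. With 1 library per day no test was made. The genes named were the 10 members, listed pathway genes with at least 50 CPM and a 2-fold ratio between successive days, and the 3 genes most like each member. Other genes are named as cluster leaders, as neighbours or as contrasts chosen after their values were seen. Interval code was tested on simulated data.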

Additional observations from a re-analysis of the deposited data

Results flagged for a closer look

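In 6 cases a member's ratio between successive days lay above 0 in 1 of the 2 main classes and below 0 in the other, each beyond its counting interval. In each comparison 9 members were counted in both classes. How many of all genes went opposite ways was not computed, so the cases are a list and not a result about the group. The differences between the log2 ratios, fibroblast-like minus macrophage-like, were not tested, since each day was 1 library.

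For Day 7 over Day 3 the difference was -2.05 for *Has1* (-1.14 in fibroblast-like and 0.92 in macrophage-like cells), -2.36 for *Has2* (-1.07 and 1.29) and -1.43 for *Tnfaip6* (-1.24 and 0.19). The macrophage-like values of *Has1* and *Has2* rest on 129 and 540, and on 16 and 87 UMIs, beside 79.2 and 428, and 14.0 and 79.3, that fibroblast RNA in its collagen ratio would bring, and the summed fibroblast markers in those cells went from 419 to 3813 CPM over the same days. For *Tnfaip6* 524 and 1321 UMIs were found beside 192 and 964. For *Stab1* the difference was -0.63 (-0.30 and 0.33), where the fibroblast-like level of 13.8 and 11.2 CPM stood beside macrophage markers of 97.9 and 378 CPM. The fibroblast-like value became 0.74 with called doublets kept and 0.24 with a class set per cell, which ends the opposite directions. Within macrophage-like clusters 2, 5, 7 and 8 the log2 ratios of *Stab1* were -0.03, -0.44, -0.02 and -0.66, none above 0. For *Vcan* it was 0.99 (0.42 and -0.57). Within macrophage-like clusters 2, 5, 7 and 8 the log2 ratios of *Vcan* were 0.43, 0.87, 1.26 and 1.47, and the class value became 0.03 with each library clustered alone. The part of fibroblast RNA in these *Vcan* ratios was not tested.

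For Day 14 over Day 7 the difference for *Cd44* was -0.73 (-0.55 in fibroblast-like and 0.19 in macrophage-like cells). Within fibroblast-like clusters 1, 4 and 3 the log2 ratios of *Cd44* were 0.44, 0.18 and -0.02.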

How the results depend on the processing

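Another scaling moved all log2 ratios of a comparison together, by 0.19 (without the 50 most abundant genes) and 0.15 (median of ratios) in fibroblast-like cells for Day 7 over Day 3, by 0.17 (median of ratios) for Day 14 over Day 7, and by 0.23 (without the 50 most abundant genes) in macrophage-like cells for Day 7 over Day 3.

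These counts of members past 2-fold moved by over 1.5 times, and the cause was not tested. In fibroblast-like cells for Day 7 over Day 3, the 2 higher became 1 with a mean of CPM per cell, and the 4 lower became 2 without the 50 most abundant genes, 2 with the median of ratios, 2 with each library clustered alone and 1 with up to 20% mitochondrial UMIs. For Day 14 over Day 7, the 1 higher became 0 with up to 20% mitochondrial UMIs, with doublets kept, with a class set per cell and with cluster 10 counted as fibroblast-like (chosen after seeing the data), and the 2 lower became 1 with doublets kept and with a class set per cell. In macrophage-like cells for Day 7 over Day 3, the 2 higher became 1 with a mean of CPM per cell and with at most 5% mitochondrial UMIs. For Day 14 over Day 7, the 1 higher became 2 with no minimum of UMIs and 0 without the 50 most abundant genes, with the full doublet rate removed, with each library clustered alone and with a class set per cell, and the 2 lower became 1 with a mean of CPM per cell, with doublets kept and at resolution 0.5.

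Across these settings *Cd44* for Day 7 over Day 3 stayed lower by at least 2-fold, from -1.49 to -1.15 in fibroblast-like and from -1.33 to -1.05 in macrophage-like cells, as did *Lyve1* higher in macrophage-like cells, from 3.095 to 3.74. These are class values, and within fibroblast-like cluster 13 and macrophage-like cluster 5 *Cd44* was at -0.93 and -0.49. *Has1* in fibroblast-like cells ranged from -1.26 to -0.79 and, for Day 14 over Day 7, from 0.84 to 1.35. *Stab1* in macrophage-like cells for Day 14 over Day 7 ranged from -1.26 to -0.79. The class highest in *Stab1* on Day 7 became macrophage-like with at most 5% mitochondrial UMIs, with doublets kept, with the full doublet rate removed and at resolution 0.5. Under the same settings that of *Lyve1* on Day 7 became endothelial-like, or macrophage-like with the full doublet rate removed. On Day 14 that of *Lyve1* and *Hyal2* became endothelial-like under these 4 settings, and that of *Stab1* macrophage-like with doublets kept and at resolution 0.5 and endothelial-like under the other two. That of *Hyal2* on Day 7 became lymphatic endothelial-like with a mean of CPM per cell and with a class set per cell, and that of *Cd44* on Day 14 macrophage-like with a class set per cell. With the full doublet rate removed, that of *Has3* on Day 7 became pericyte-like (1 UMI in that class before this removal) and that of *Hyal1* macrophage-like. Thinning to 1000 UMIs moved 24 of 24 shares of cells. No paired analysis was possible because each day was 1 library, and for the same reason no library could be left out.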
